A study of Folsomia candida with 36 samples.

Results

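The data cover 12 of the 36 RNA sequencing libraries of a time course in the springtail Folsomia candida, a wingless hexapod of the soil on which many soil pollutants are tested. They are the 6 libraries of animals kept on imidacloprid soil for 60 or 72 h and the 6 of control animals at the same times, the last 2 of the 6 sampling times. The libraries were chosen by treatment and time in the labels. The exposed groups were imidacloprid 60 h (3 libraries) and imidacloprid 72 h (3 libraries), each at 0.25 mg per kg dry soil, and the control groups were control 60 h (3 libraries) and control 72 h (3 libraries), on the same natural soil (LUFA2.2) mixed with water only. All animals were wild type of the Berlin strain, RNA came from whole bodies of pooled animals (70 per pool), and the labels give no age. The study's design text gives this concentration as the EC20 for reproduction. A difference in level in such a pool can come from more RNA per cell or from more cells of a type, and these cannot be told apart.

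Imidacloprid is a neonicotinoid insecticide. It binds nicotinic acetylcholine receptors, the ion channels that pass fast signals between nerve cells in insects and their relatives, and holds them open. In arthropods that survive exposure, known responses to such compounds include the enzymes of detoxification (cytochromes P450, which oxidise foreign molecules, and transferases that attach soluble groups to them), stress proteins, and genes of the cuticle, moulting and reproduction. The deposited table lists gene models by number only, and none of its identifiers was found in the RefSeq gene table of the species, so no gene below can be placed in any of these groups, and no position or sequence is given.

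The comparison asks which genes differed between exposed and control animals late in the exposure, with 6 libraries a side and time point as a covariate. Total counts were between 21254060 and 42146055 per library, and 18942 of 28734 gene models had enough counts to be tested. A gene with 3 counts stood between 0.0712 and 0.141 CPM (the library's counts scaled to a common total) in these libraries, and such a floor covers counting error only. The labels put the pools in jars and do not say how replicates were made, so p-values measure the spread between these libraries, which may be technical in part.

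Exposed animals had 6 genes at a higher level and none at a lower level (edgeR quasi-likelihood test, Benjamini-Hochberg adjusted p under 0.05). They make up 0.0317% of the genes tested. The differences were between 3.87-fold and 9.93-fold, and in each of the 6 genes every exposed library lay above every control library at both times. At an unadjusted p under 0.05 there were 839 genes, 438 higher and 401 lower, where 947 would be found by chance. Over all genes tested, log2 fold changes had a median standard error of 0.23. DESeq2 on the same 12 libraries called 40 genes higher and 24 lower, limma-voom 6 higher and 0 lower, and the 6 genes were among the calls of both tools.

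**Figure D1:**
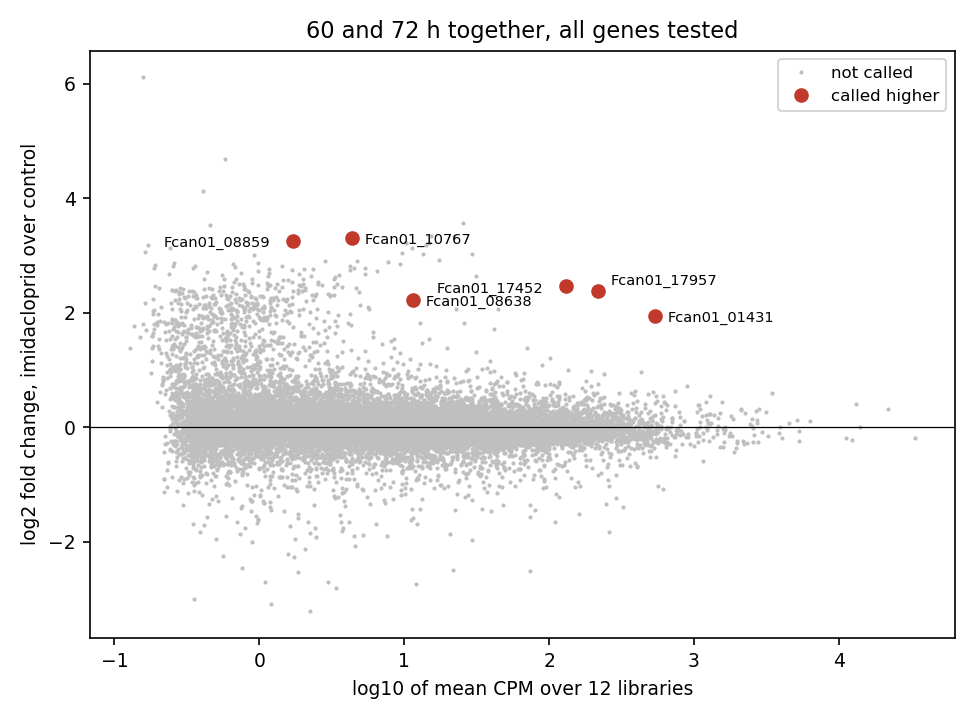
Log2 fold change of imidacloprid over control at 60 and 72 h together (vertical axis) against log10 of the mean CPM over the 12 libraries (horizontal axis), one point per gene tested. The 6 called genes, in red, lie between log2 fold changes of 1.95 and 3.31 and span mean levels of 1.71 to 539 CPM; many grey points of low level reach as high without being called.

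The most abundant of the 6 was Fcan01_01431, a gene of unknown product that ranked 172 by mean level among the genes tested. It stood at 870, 1296 and 528 CPM in exposed animals at 60 h, against 182, 200.2 and 297 CPM in controls. At 72 h it stood at 909, 822 and 718 CPM in exposed animals, against 166, 190 and 293 CPM in controls. The groups did not overlap at either time, and the lowest exposed library, imidacloprid 60 h replicate 5, was still well above the highest control. Over both times its log2 fold change was 1.95 ± 0.23 (SE), or 3.87-fold (edgeR adjusted p = 0.00714). It was named after its values were seen, since it was the one call that the rule for named genes left out. The call was lost, at a log2 fold change of 1.99 and an edgeR adjusted p of 0.0672, in a run that dealt with irregular titles: imidacloprid 60 h replicate 1 was left out, whose library number, 34, falls among those of the 36 h libraries, and libraries 71 and 72, which both carry replicate number 4, were summed.

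Fcan01_17957 and Fcan01_17452 are also abundant and differed by more. Fcan01_17957 stood at 332, 518 and 256 CPM in exposed animals at 60 h, against 63.4, 52.1 and 88.1 CPM in controls. Its levels at 72 h were 391, 367 and 328 CPM in exposed animals, against 86.6, 63.2 and 66.8 CPM in controls. The exposed libraries at 72 h lay close together, with a mean of 362 ± 31.9 CPM (SD, n = 3), and those at 60 h were spread more widely, at 369 ± 135 CPM. Its log2 fold change was 2.38 ± 0.19 (SE), or 5.22-fold (edgeR adjusted p = 0.000176).

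Fcan01_17452 stood at 216, 328 and 154 CPM in exposed animals at 60 h, against 41.7, 33.3 and 50.04 CPM in controls. At 72 h the values were 201, 249 and 174 CPM in exposed animals, against 31.9, 39.3 and 43.6 CPM in controls. The order of the exposed libraries at 60 h was the same as for both genes above, with replicate 3 highest and replicate 5 lowest. The log2 fold change was 2.46 ± 0.19 (SE), or 5.51-fold (edgeR adjusted p = 0.000176).

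Fcan01_08638 was of intermediate level. It stood at 15.3, 28.8 and 13.9 CPM in exposed animals at 60 h, against 2.84, 4.32 and 3.34 CPM in controls, and at 72 h at 22.0, 16.6 and 16.5 CPM, against 5.40, 4.21 and 4.23 CPM in controls. All exposed libraries lay above all controls of either time. Its log2 fold change was 2.23 ± 0.22 (SE), or 4.68-fold (edgeR adjusted p = 0.00154).

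The largest differences were in the 2 genes of lowest level, Fcan01_10767 and Fcan01_08859. Fcan01_10767 stood at 5.65, 12.7 and 5.01 CPM in exposed animals at 60 h, against 0.693, 0.700 and 0.564 CPM in controls. At 72 h it stood at 9.02, 7.09 and 7.93 CPM in exposed animals, against 1.07, 0.791 and 1.01 CPM in controls. It had 163 to 292 counts per exposed library and 13 to 31 per control library, so controls held it at a low but measurable level. The log2 fold change was 3.31 ± 0.26 (SE), or 9.93-fold (edgeR adjusted p = 0.000176).

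Fcan01_08859 stood at 3.42, 4.05 and 2.24 CPM in exposed animals at 60 h, against 0.297, 0.165 and 0.304 CPM in controls. Its 72 h values were 3.28, 3.87 and 1.76 CPM in exposed animals, against 0.140, 0.332 and 0.721 CPM in controls. Controls had only 3 to 15 counts per library, at the floor in the lowest, so the size of this difference is less certain than those above. The log2 fold change was 3.26 ± 0.39 (SE), or 9.56-fold (edgeR adjusted p = 0.00714). This call was lost when all 36 libraries were fitted together, at a log2 fold change of 3.25 and an edgeR adjusted p of 0.0635.

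**Figure D2:**
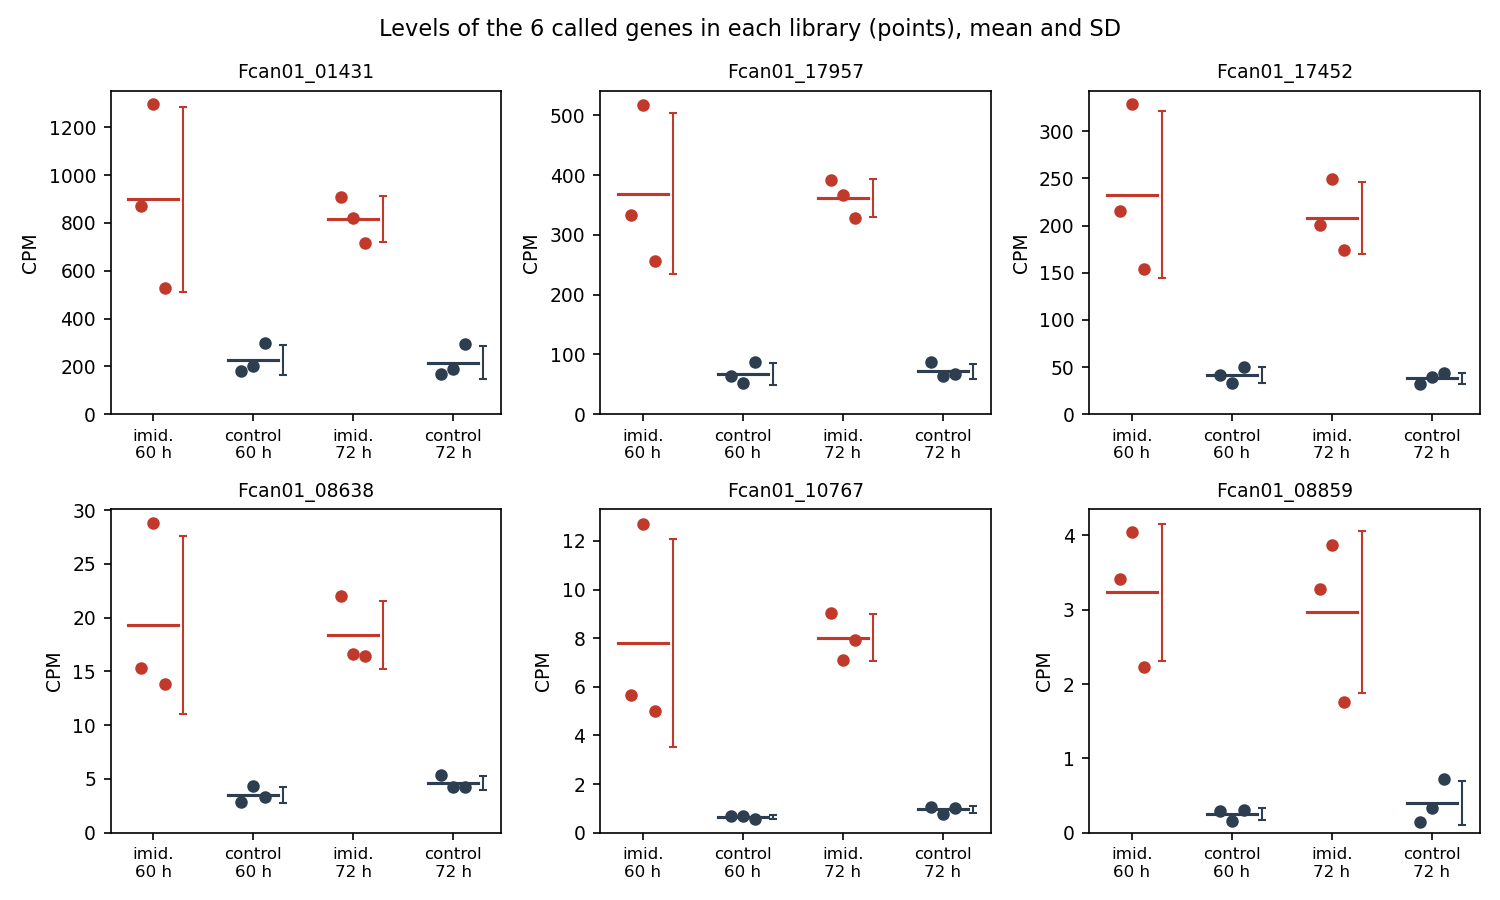
CPM of each called gene in each library (points), for exposed animals (red) and controls (dark) at 60 and at 72 h, with the group mean as a line and the SD as the bar beside it (n = 3 per group). In all 6 panels the exposed points lie above the control points at both times. In 5 panels the exposed points at 60 h spread most, and in that of Fcan01_08859 those at 72 h do (SD of 0.920 CPM at 60 h and 1.09 CPM at 72 h).

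The exposed libraries differed among themselves in step. At 60 h, replicate 3 was the highest exposed library in 6 of the 6 genes and replicate 5 the lowest in 6 of 6. Their median log2 levels above the mean of the 60 h controls were 2.36 in replicate 1, 3.02 in replicate 3 and 1.97 in replicate 5. At 72 h the spread was smaller, with 2.43 in replicate 1, 2.54 in library 71 and 2.18 in library 72, the 2 libraries that both carry replicate number 4. Replicate 1 was highest there in 4 of the 6 genes and library 72 lowest in 5. Over the 6 exposed libraries the 15 pairs of these genes had Pearson correlations of log2 CPM from 0.38 to 0.97, with a median of 0.84. These are a description of 6 libraries that share their scaling, and no test was made.

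Each time point was also read alone, within a fit of 4 group means to the same 12 libraries. At 60 h, 4 genes were called, all higher in exposed animals (0.0211% of the genes tested): Fcan01_10767, Fcan01_17452, Fcan01_17957 and Fcan01_08638. Their log2 fold changes were 3.56 ± 0.38, 2.48 ± 0.28, 2.44 ± 0.28 and 2.46 ± 0.32 (SE), with edgeR adjusted p of 0.0170 for the first 3 and 0.0364 for Fcan01_08638. At 72 h, 3 genes were called, again all higher (0.0158% of the genes tested), and these were the first 3 of the 4. Their log2 fold changes there were 3.07 ± 0.37 for Fcan01_10767, 2.44 ± 0.28 for Fcan01_17452 and 2.33 ± 0.28 for Fcan01_17957, each with an edgeR adjusted p of 0.0281. Fcan01_08638 had 1.99 ± 0.31 at 72 h and did not pass (edgeR adjusted p = 0.188). At an unadjusted p under 0.05 there were 468 genes at 60 h and 747 at 72 h, where 947 would be found by chance at each. The direction of the calls at 72 h turned with the tool: DESeq2 called 24 genes higher and 35 lower, and limma-voom with library weights called 6 higher and 9 lower. At 60 h these tools called 19 higher and 4 lower, and 9 higher and 0 lower. Fitted on its own 6 libraries, 60 h gave 0 calls (838 genes at an unadjusted p under 0.05, edgeR smallest adjusted p = 0.433) and 72 h gave 4, the same 3 genes and Fcan01_15129, whose log2 fold change at 72 h was -2.01 ± 0.53 (SE) in the fit to 12 libraries.

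The calls at single time points were lost in many of the runs that left out or summed libraries, and why was not tested. With libraries 71 and 72 counted as 1 sample by summing, no gene was called at 72 h (691 at an unadjusted p under 0.05, edgeR) and 3 at 60 h, and with library 34 left out as well none was called at either time (1122 at 60 h and 610 at 72 h at an unadjusted p under 0.05). Whether library 34 carries the right time label was not tested. No gene was called at 60 h without control 60 h replicate 2, 5 or 6 or without imidacloprid 60 h replicate 1. At 72 h no gene was called without control 60 h replicate 2, control 72 h replicate 3 or 4, imidacloprid 60 h replicate 1 or any of the 3 exposed 72 h libraries, and without control 72 h replicate 5 the only call was 1 lower gene. Over both times together, all 6 genes kept their calls in each of the 12 runs that left out a library. Without control 60 h replicate 5 that count was 10, with 6 higher and 4 lower genes.

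The change of the effect between the times was tested directly, and no gene passed (0% of the genes tested, edgeR smallest adjusted p = 1.00). In this test 334 genes had an unadjusted p under 0.05, DESeq2 called 9 genes and limma-voom 0. For the 6 genes the effect at 72 h minus that at 60 h was between -0.73 ± 0.74 (Fcan01_08859) and -0.04 ± 0.38 (SE, Fcan01_17452) in log2 units. All 6 estimates were below 0, and none had an unadjusted p under 0.29. The median standard error of this difference was 0.48 over all genes, so only large changes between the times could have passed.

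Fcan01_15105 was the nearest among genes lower in exposed animals, and was chosen after its values were seen. It stood at 14.1, 13.4 and 14.8 CPM in exposed animals at 60 h, against 24.8, 18.9 and 27.5 CPM in controls, and at 72 h at 16.8, 19.8 and 18.5 CPM, against 45.3, 40.7 and 32.0 CPM in controls. The groups did not overlap at either time, and the exposed libraries lay closer together than the controls. The log2 fold change was -0.92 ± 0.14 (SE, edgeR adjusted p = 0.0528). It was called in 5 of the alternatives tried, with log2 fold changes from -0.96 to -0.86 over all of them. Fcan01_17273, also chosen after its values were seen, was higher in exposed animals by 1.20 ± 0.18 in log2 units, with the same adjusted p, and was called in 6 alternatives. It averaged 141 ± 54.3 CPM in exposed animals and 58.4 ± 10.5 CPM in controls at 60 h, and 141 ± 22.8 CPM in exposed animals and 64.4 ± 10.1 CPM in controls at 72 h (SD, n = 3 each).

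Beyond single genes, all exposed libraries lay above all controls at both times in 64 genes (0.338% of those tested) and below all controls in 34 genes (0.179%). The 64 had a median log2 fold change of 0.99, and 29 of them differed by more than 1 in log2 units. The 34 had a median of -0.62, and 14 of them differed by more than 1. The median level of the 64 was 5.52 CPM and that of the 34 was 23.2 CPM. These genes were picked by the contrast itself, so the counts describe it and support nothing further. With 3 libraries a group some genes separate in this way by chance. For a gene without ties, a fraction of 0.005 of the 400 reassignments of treatment within time point separates the groups so, both directions counted. The 64 and 34 genes together make up about that share of the genes tested, so their number is no result about them.

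**Figure D3:**
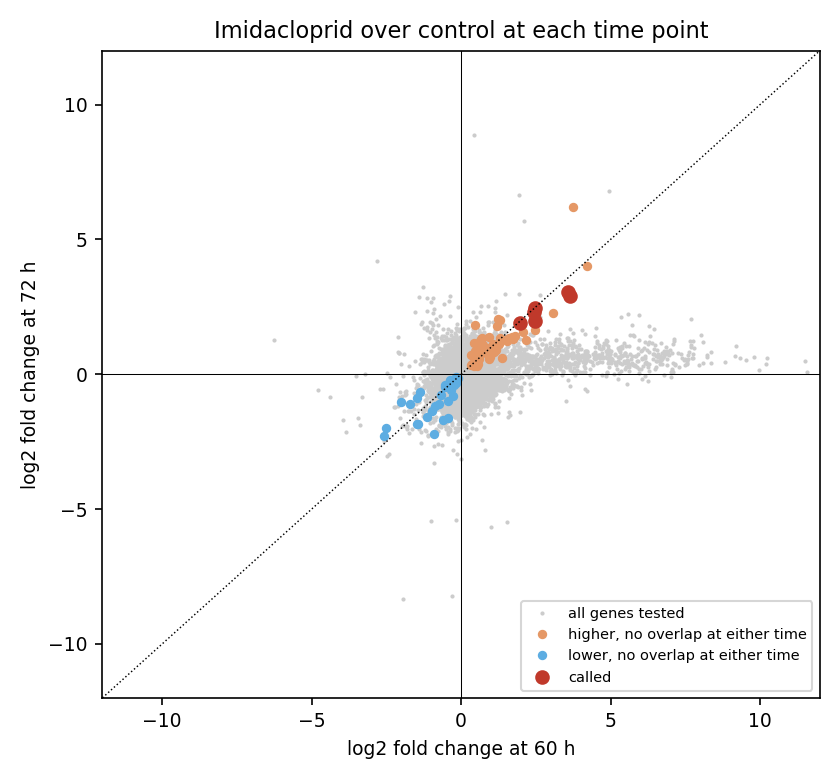
Log2 fold change of imidacloprid over control at 60 h (horizontal axis) and at 72 h (vertical axis) for all genes tested, with genes whose exposed and control libraries do not overlap at either time in orange (64 higher) and blue (34 lower), the 6 called genes in red and the line of equal change dotted. A wing of grey points reaches far to the right at 60 h with little change at 72 h; it holds genes of low level that were high in 2 of the 3 exposed libraries at 60 h.

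Large fold changes at 60 h were mostly in genes that followed a split between libraries. At 60 h, 601 genes were more than 4-fold higher by estimate in exposed animals, against 49 at 72 h, and 15 were so at both times. The 601 had a median level of 0.684 CPM and a median log2 fold change of 0.62 at 72 h. They included all 108 genes of a co-varying set, the largest cluster among the genes of highest variance in the series, whose mean log2 CPM marks libraries that stand apart. Over the 12 libraries the median correlation of the 601 genes with that mean level was 0.97. The set averaged between 1.85 and 3.08 in 4 of the 6 exposed libraries (imidacloprid 60 h replicates 3 and 5, imidacloprid 72 h replicate 1 and library 71) and between -3.03 and -2.89 in the other two. Among controls, replicate 5 at 72 h reached 3.01, and the other 5 lay between -3.16 and -2.71. All 108 set genes were tested, 0 were called, and 0 had an unadjusted p under 0.05 over both times, with a median log2 fold change of 2.43.

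All 6 called genes kept their calls without the libraries that were high in this set, and none of the 6 belongs to it. Their mean log2 CPM was 5.68 and 5.52 in the exposed libraries low in the set, between 5.27 and 6.37 in those high in it, 3.55 in the control library high in it, and between 2.90 and 3.25 in the other controls. With the level of the set in the model all 6 were called, with log2 fold changes of 1.80 for Fcan01_01431, 2.33 for Fcan01_17957, 2.32 for Fcan01_17452, 2.13 for Fcan01_08638, 3.18 for Fcan01_10767 and 2.93 for Fcan01_08859. Without the 5 libraries high in the set, 2 exposed libraries were left against 5 controls. The exposed ones were imidacloprid 60 h replicate 1 (library 34, of irregular number) and library 72, which shares its replicate number with library 71. That run called 1 further gene, Fcan01_13300, lower in exposed animals. In it Fcan01_13300, Fcan01_08638 and Fcan01_08859 only just passed (edgeR adjusted p = 0.0491 for each). The single-time calls did not hold with the level of the set in the model (0 genes at 60 h and 0 at 72 h).

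**Figure D4:**
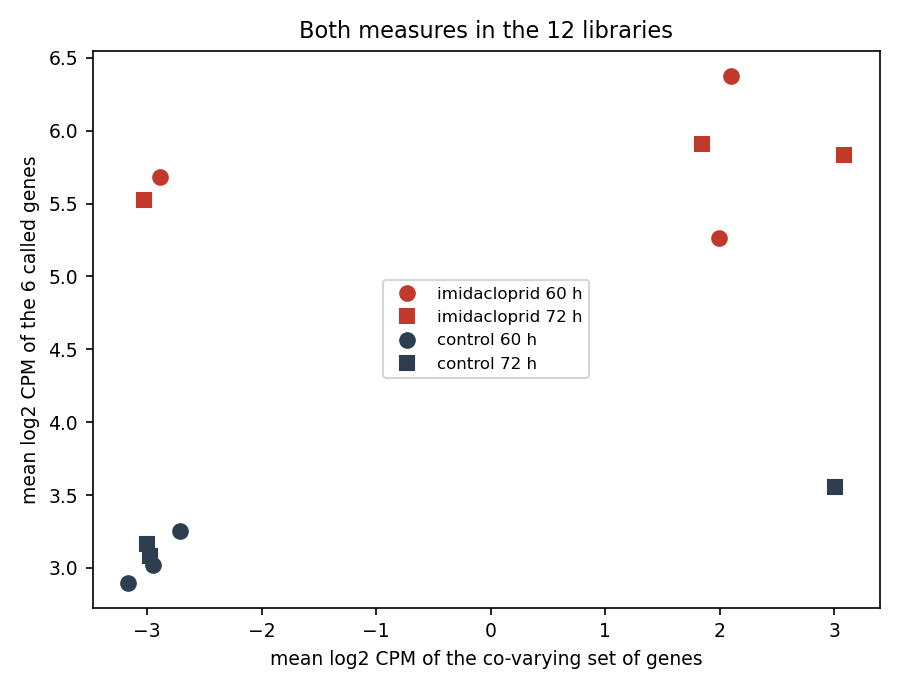
Mean log2 CPM of the 6 called genes (vertical axis, no prior count) against that of the 108 co-varying genes (horizontal axis, prior count of 2) in the 12 libraries. Exposed libraries are in red and controls in dark, with circles for 60 h and squares for 72 h. The libraries fall into a low and a high cluster along the horizontal axis, and in each cluster the exposed libraries lie at 5.27 or above and the controls at 3.55 or below.

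The 2 times were also used to read each other, each fitted on its own 6 libraries, which share no control. Of the 50 genes of smallest p that were higher at 60 h, 48 were also higher at 72 h, but with a median log2 fold change of 0.70, against 4.18 at 60 h. Of those 50, 22 belonged to the co-varying set. Outside the set 26 of 28 were higher at 72 h, and 6 of the 50 were the called genes. Genes outside the set can still follow its split. The 601 genes above had a median correlation of 0.97 with the set's level, and only 108 of them were members. At 72 h the set was high in imidacloprid replicate 1, library 71 and control replicate 5, so in more exposed than control libraries. How far the 28 genes followed the split was not tested. Of the 50 lower at 60 h, 38 were lower at 72 h, with a median of -0.56. In the other direction, 39 of the 50 genes higher at 72 h were higher at 60 h (median 0.64), and 38 of the 50 lower ones were lower (median -0.46). Among all genes tested, 50.4% were higher at 72 h and 50.7% at 60 h. All 6 called genes were among the 50 higher genes at each time, but they were called on these same libraries, so this adds no support. Across 18942 genes, which are not independent and share libraries within each time, the log2 fold changes at 60 and 72 h had a Pearson correlation of 0.31 and a Spearman correlation of 0.28.

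The 6 genes were then read in the 24 libraries at 12, 24, 36 and 48 h, which are other pools and were fitted on their own. At 12 h, 3 of the 6 were higher in exposed animals, with a median log2 fold change of 0.20. At 24, 36 and 48 h all 6 were higher, with medians of 1.10, 1.46 and 2.36. The medians of all 19130 genes tested there were between -0.02 and 0.07, and between 48.3% and 54.2% of them were higher. That earlier fit called 4 genes at 48 h (0.0209% of those tested) and none at 12, 24 or 36 h. All 4 were among the 6: Fcan01_17957 at 2.75 ± 0.34, Fcan01_17452 at 3.18 ± 0.45, Fcan01_08638 at 2.33 ± 0.34 and Fcan01_01431 at 2.39 ± 0.36 (SE; edgeR adjusted p of 0.00213, 0.00618, 0.00618 and 0.0102).

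Fcan01_10767 had estimates that went up at each step, 0.50 ± 0.43 at 12 h, 1.02 ± 0.42 at 24 h, 1.43 ± 0.42 at 36 h and 2.29 ± 0.43 (SE) at 48 h, and none of them passed (edgeR adjusted p = 0.0992 at 48 h). Its exposed and control libraries did not overlap at 24, 36 or 48 h. With 3 libraries a group this can occur by chance, and its share over all genes tested at these times was not worked out. Fcan01_17957 and Fcan01_17452 were level with their controls at 12 h, at -0.02 ± 0.32 and -0.08 ± 0.41. Fcan01_08859 had wide errors at these times (SE of 0.94 to 1.13), and averaged 0.385 to 1.98 CPM in exposed animals and 0.120 to 0.790 CPM in controls.

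**Figure D5:**
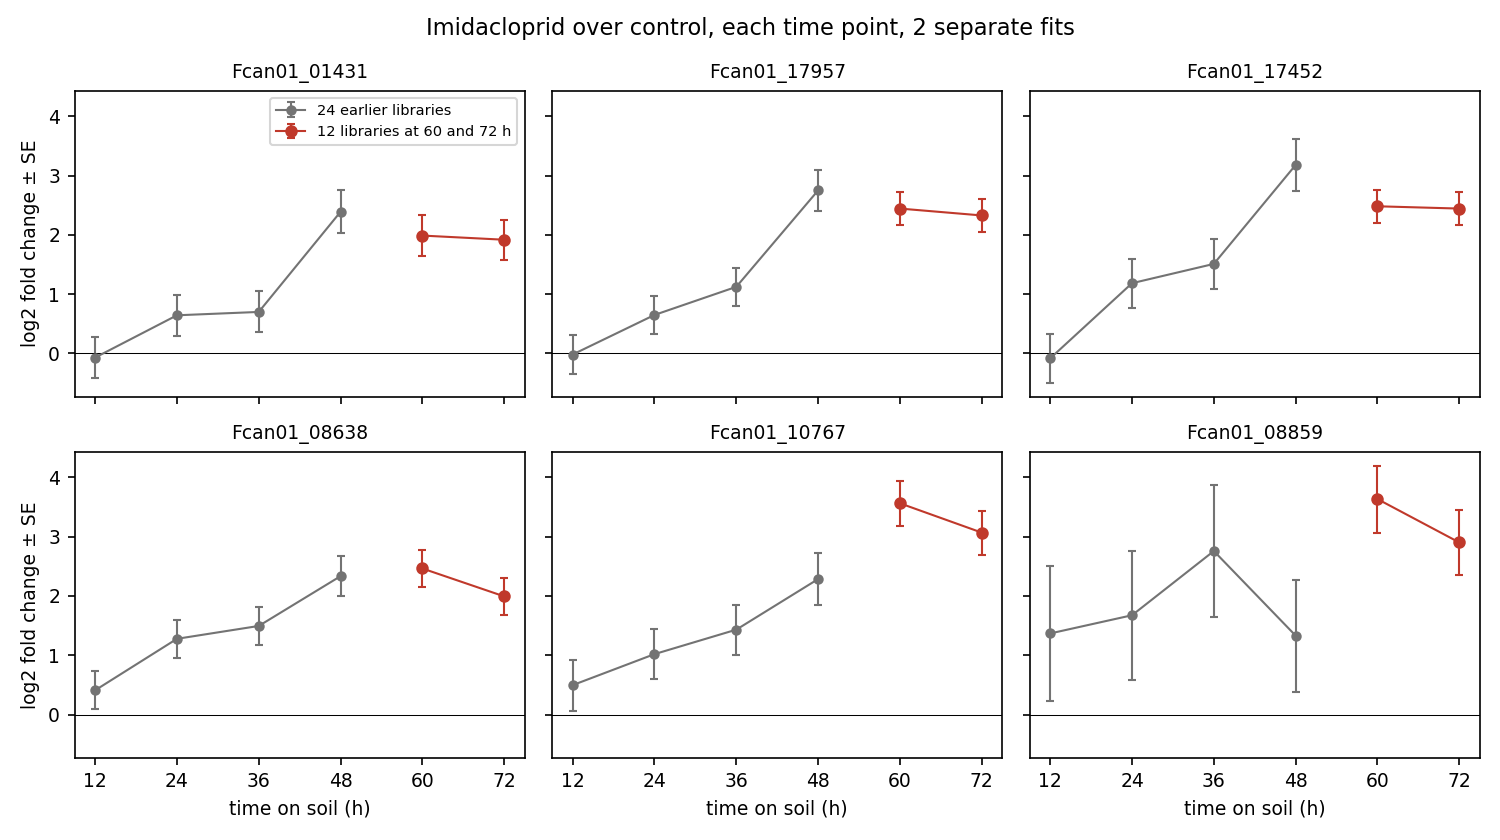
Log2 fold change of imidacloprid over control with its standard error for each of the 6 called genes, from the 24 libraries at 12 to 48 h (grey) and from the 12 libraries at 60 and 72 h (red), 2 separate fits that each scale their own libraries. In Fcan01_01431, Fcan01_17957 and Fcan01_17452 the estimate is near 0 at 12 h and highest at 48 h; the genes were chosen on the red points, so only the grey ones are independent of the choice.

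Whether the effect at 60 and 72 h differed from the mean effect at 12 to 48 h was tested over all 36 libraries. No gene passed (0% of 19600 genes tested, edgeR smallest adjusted p = 0.103), 1034 had an unadjusted p under 0.05, DESeq2 called 12 genes and limma-voom 0. Fcan01_10767 had the largest difference of the 6, at 1.99 ± 0.37 (SE) in log2 units (edgeR adjusted p = 0.103), and the other 5 had 0.83 to 1.44. Fcan01_15105, the lower gene, had -0.92 ± 0.17 with the same adjusted p. These genes were chosen for their values at 60 and 72 h, which favours a difference from earlier times. The difference is also not one from 48 h alone. Fcan01_17452, Fcan01_17957, Fcan01_01431 and Fcan01_08638 had larger estimates at 48 h than over 60 and 72 h, and Fcan01_10767 and Fcan01_08859 had smaller ones.

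Of the variance in log2 CPM over the 12 libraries and 18942 genes, 12.5% went with treatment, and the median over all 400 reassignments of treatment within time point was 7.52% (exact permutation test, p = 0.205, where 0.005 is the smallest p possible). Without control 72 h replicate 5, the control library high in the co-varying set, the share was 20.4% (exact permutation test, p = 0.06). This was the largest share in the 12 runs that left out a library. The next were the runs without an exposed library low in the set. They gave 18.3% without library 72 (exact permutation test, p = 0.065) and 16.7% without imidacloprid 60 h replicate 1 (exact permutation test, p = 0.11). The other runs gave 9.50% to 13.5%. Leaving out any of these named libraries makes treatment line up more closely with the level of the set. How much of the share goes with the set was not tested.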

How the data were processed

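Per the labels' protocols, TRIzol extraction was followed by a TruSeq stranded mRNA kit, and the authors then trimmed reads with Trim Galore, quantified transcripts with Salmon 1.4.0 (transcriptome release not given in the sources used here) and normalized with DESeq2 1.28.1. The authors deposited estimated counts for each gene model. They are whole numbers whose totals differ between libraries, and they were tested as counts. Salmon estimates how reads split between similar transcripts, which leaves the counts of gene copies that are nearly identical uncertain.

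Tests used edgeR 4.0.16 in R 4.3.3 on the 12 libraries: filterByExpr (minimum count 10, minimum total 15) chose the genes, which were scaled by TMM (factors 0.93 to 1.06), and tested by quasi-likelihood with time point and treatment in the model (9 residual degrees of freedom). The tested genes held 99.95% of all counts. Each time alone and the difference between times came from 4 group means. The standard error is the log2 fold change divided by the square root of the F statistic, and log2 CPM uses a prior count of 2. Alternatives used DESeq2 1.42.0, limma 3.58.1 and other settings. The steps were tested on simulated data.

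Replicate numbers come from the titles. Libraries 71 and 72 both carry number 4 at 72 h. Their counts differed by a chi-square per degree of freedom of 105, and other pairs within a group had 58.6 to 248, so both were kept, as 2 replicates. The exposed and control groups share only 1 number at each time, and libraries of the same number had correlations of deviations of 0.41, -0.13 and 0.46, so the numbers were not used as pairs.

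The comparison and the co-varying set (complete linkage on 1 minus the correlation, height 0.5, among 171 genes whose log2 CPM had a variance above 4) were chosen with earlier results of these data known. Gene lists that need product names were left out. The rule for named genes took called genes of at least 1 CPM with no overlap at either time, 2 per direction by size, and all calls where a comparison had 5 or fewer. Any other gene named was picked after its values had been seen. This is said where the gene is named, and holds also for Fcan01_15129 and Fcan01_13300, each named as a call of another run.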

Additional observations from a re-analysis of the deposited data

How the results depend on the processing

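Over both times together, the 6 genes were called in each alternative but those named here, and the signs of their differences held in all. Fcan01_08859 lost its call with all 36 libraries (3.25, edgeR adjusted p = 0.0635) and was not tested with the filter at 5 CPM in 3 libraries. The count of calls was 64 with DESeq2 and 15 with limma-voom with library weights, and the 12 runs that left out a library gave 6 to 10. A fit with the replicate number as a block (replicate block), with few residual degrees of freedom left, called 0 genes over both times, 0 at 60 h and 0 at 72 h (1777, 251 and 794 at an unadjusted p under 0.05). Log2 fold changes there were 2.01 to 3.38 for the 6 genes. Without irregular titles (library 34 of imidacloprid 60 h left out, 71 and 72 summed) Fcan01_01431 lost its call (1.99, edgeR adjusted p = 0.0672, against a range of 4.57e-14 to 0.529 over its alternatives). At 60 h the count was 23 with DESeq2, 2 with limma-voom, 9 with library weights, 0 with the co-varying set's level and 0 without irregular titles, and 0 to 4 when a library was left out. At 72 h it was 59 (24 higher, 35 lower), 4 and 15 (6 higher, 9 lower) with these tools, 0 with the filter at 5 CPM in 3 libraries, 5 with all 36 libraries, 0 with the level of the set, 0 without irregular titles, 0 with libraries 71 and 72 summed (a run added after the data were seen), and 0 to 4 when a library was left out. The difference between the times had 9 calls and that from earlier times 12 with DESeq2, and 0 in all runs that left out a library. With the level of the set in the model, the median log2 fold change of the 6 genes was -0.21 at 12 h and 2.76 at 48 h. The share of variance was 9.50% to 20.4% when a library was left out. The cause of these shifts was not tested. Depth limits Fcan01_08859 most, with 3 counts in its lowest control.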

Other observations

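Among the 100 genes of smallest p over both times, 63 were higher and 37 lower in exposed animals, and 12 of them formed 6 pairs with consecutive identifiers, each pair moving the same way. The pairs include Fcan01_16433 and Fcan01_16434, with log2 fold changes of 2.06 and 1.82, and Fcan01_09015 and Fcan01_09016, with -2.53 and -1.88. None of these 12 genes was called by edgeR, and the sources used here do not say what order the numbers follow. They were picked out after their values were seen. How many such pairs 100 genes would hold by chance, and how often neighbours move alike over all genes tested, were not worked out.

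The genes with the smallest p in each direction over both times, 100 higher and 100 lower, were read in the earlier libraries. The higher ones include the 6 called genes. Of all 19130 genes tested there, 50.0%, 51.3%, 48.3% and 54.2% were higher at the 4 times. Of the 96 higher genes tested there, those also higher numbered 63 at 12 h. They were 80 (24 h), 67 (36 h) and 83 (48 h) later on, and the median log2 fold changes at these 4 times were 0.15, 0.44, 0.24 and 0.89. Of the 99 lower genes, 52, 54, 53 and 49 were lower at these times, with medians of -0.02, -0.08, -0.25 and 0.0046. The lists were chosen after the data were seen, and the difference between them was not tested.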
